A study of Mus musculus with 6 samples.

Results

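The circadian clock genes were followed in MC3T3-E1 cells, a preosteoblast line from mouse calvaria, cultured with or without cyanidin-3-glucoside (C3G), a plant anthocyanin. The 10 genes were *Arntl* (also called *Bmal1*), *Clock*, *Per1*, *Per2*, *Per3*, *Cry1*, *Cry2*, *Nr1d1*, *Nr1d2* and *Dbp*. They were chosen by name, and all 10 were among the 11234 genes listed in each library. RNA was sequenced from 3 control and 3 C3G libraries, numbered 1 to 3 in each group. All libraries were from the same line, labelled C57BL/6 and passage 4. The cells had been kept for 24 h in serum-free medium and then for 24 h in complete medium, with 100 μmol/L C3G in the C3G group and none in the control group. The group comparison asked whether the clock genes responded to C3G, and the replicate numbers asked whether same-numbered libraries of both groups shared clock gene levels.

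Of the 8 preosteoblast markers, 7 were listed, and *Ibsp* (bone sialoprotein) was not. Their summed FPKM was between 2427 and 7556 in the control libraries and between 2464 and 3394 in the C3G libraries. The high end was control replicate 1, where the collagen gene *Col1a1* was at 4432 FPKM against 923 to 1478 in the other 5 libraries. *Col1a2*, the other type I collagen chain, had the second highest mean of the markers, 918.3 FPKM, and *Sp7* (osterix) the lowest, 0.542 FPKM. Of the markers of other cell types, *Cd68* was the only listed one of 5 for macrophages and *Des* the only listed one of 4 for skeletal muscle. None of the 5 adipocyte markers and none of the 4 endothelial markers was listed. The summed level of the macrophage markers was 0.144 to 1.08 FPKM in controls and 0.721 to 1.25 in C3G libraries, and that of the muscle markers was 0.715 to 1.63 and 0.780 to 0.982. Both replicate 1 libraries stood apart by the base composition of the transcripts. The Spearman correlation between a gene's departure from its group mean and its GC content was 0.748 in control replicate 1 and 0.631 in C3G replicate 1, and it was between -0.692 and -0.469 in the other 4 libraries. Control replicate 1 also had the lowest median FPKM, 5.80 against 6.93 to 7.40, and listed 71 genes at 0 against 9 to 18. The tests of the members on the replicate number are therefore given with and without replicate 1.

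The mammalian clock is a set of linked feedback loops. The proteins of *Arntl* and *Clock* form a dimer that binds the E-box, CACGTG, and switches on the *Per* and *Cry* genes, whose proteins return to the nucleus and repress that dimer. *Nr1d1* and *Nr1d2* encode the REV-ERB repressors, which are also E-box targets and which silence *Arntl* through the ROR element, so that *Arntl* and the *Nr1d*, *Per* and *Dbp* transcripts peak at opposite times of the cycle in most tissues. *Dbp* encodes an activator that binds a further element, the D-box, found in the *Per* genes. Osteoblasts have this clock, and in cultured cells serum and medium changes are known to set its time.

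FPKM is a fragment count per kilobase of gene model, scaled to the mapped fragments of the library, so levels of different genes may be set side by side. By mean FPKM over the 6 libraries the order was *Nr1d2* (19.1), *Nr1d1* (13.2), *Cry1* (11.9), *Per2* (7.91), *Dbp* (7.25), *Clock* (6.75), *Per1* (5.37), *Cry2* (2.87), *Per3* (2.72) and *Arntl* (1.66). *Nr1d2* was above 77.8% of all listed genes and *Arntl* above 13.4%. The ranges of neighbours in this order overlapped, except that *Cry1* (10.9 to 13.3) lay above *Per2* (7.01 to 9.66) in all libraries and *Per1* (4.49 to 6.13) above *Cry2* (2.44 to 3.32). The order of the other neighbours was not resolved beyond the spread. *Clock* varied most among the libraries, with its highest FPKM 5.30 times its lowest, followed by *Nr1d2* with 3.86 times. Both values rest on control replicate 1, without which *Clock* had 2.64, *Nr1d2* 2.22, *Dbp* 2.64 and *Arntl* 2.70 times. *Cry1* varied least, with 1.23 times, and with 1.13 times when that library was left out.

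**Figure D1:**
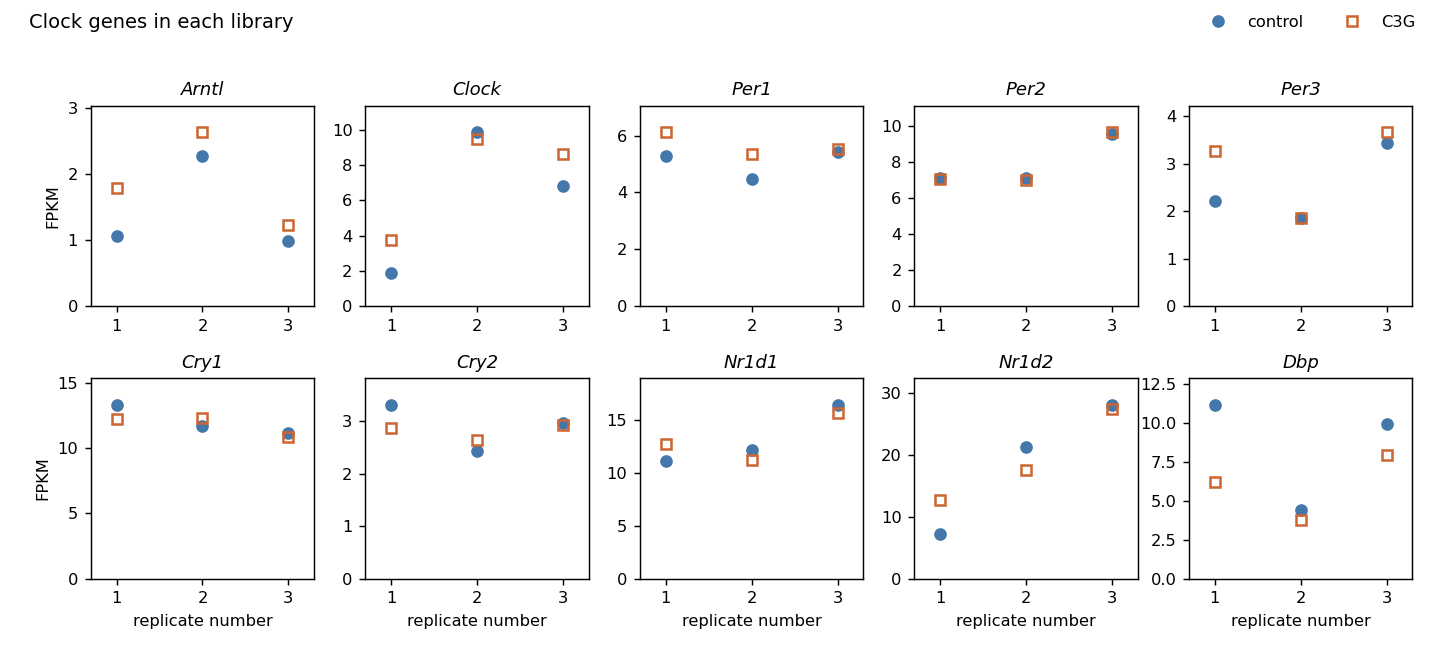
FPKM of each of the 10 clock genes (vertical axes from 0, each with its own scale) against the replicate number of the library (horizontal axes); filled blue circles are the control libraries and open orange squares the C3G libraries, and the replicate numbers have no order. For *Arntl* both replicate 2 libraries are the highest of the 6, while for *Per2*, *Nr1d1*, *Nr1d2* and *Per3* both replicate 3 libraries are the highest.

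The positive arm was led by *Arntl* (chr7:113207465-113314126 on GRCm38, plus strand, ENSMUSG00000055116). In control replicates 1, 2 and 3 it stood at 1.06, 2.27 and 0.977 FPKM. The C3G libraries, in the same sequence of numbers, had 1.78, 2.63 and 1.22. Replicate 2 was the highest in each group and replicate 3 the lowest, and the range of the control libraries overlapped that of the C3G libraries. *Clock* (chr5:76209868-76304792, minus strand) encodes the other subunit of the dimer. Its FPKM was 1.87, 9.90 and 6.83 in the controls and 3.75, 9.50 and 8.63 with C3G. Both replicate 1 libraries were far below the other 4, and replicate 2 was again the highest in each group.

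The *Per* genes encode the repressors that build up each day. *Per1* (chr11:69095217-69109960, plus strand) was at 5.29, 4.49 and 5.43 FPKM in the controls and at 6.13, 5.34 and 5.52 with C3G. *Per2* (chr1:91415982-91459324, minus strand) was at 7.12, 7.12 and 9.52 FPKM in the controls and at 7.02, 7.01 and 9.66 with C3G. Replicates 1 and 2 of *Per2* could hardly be told from each other in either group, and both replicate 3 libraries lay above all the others. *Per3* (chr4:151003652-151044665, minus strand) was at 2.22, 1.86 and 3.43 FPKM in the controls and at 3.27, 1.86 and 3.67 with C3G. Replicate 2 was thus the lowest in both groups for *Per1* and *Per3*, and for *Per3* both replicate 3 libraries were the highest of the 6. For *Per1*, replicate 2 minus 1 turned from -0.18 to 0.28 on the log2 scale when a trend in GC content was subtracted, as described below.

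The cryptochromes are the partners of the PER proteins. *Cry1* (chr10:85131700-85185064, minus strand) was at 13.3, 11.7 and 11.1 FPKM in the controls and at 12.2, 12.3 and 10.9 with C3G. *Cry2* (chr2:92403646-92434043, minus strand) was at 3.32, 2.44 and 2.97 FPKM in the controls and at 2.88, 2.66 and 2.94 with C3G. *Cry1* was the lowest in replicate 3 of each group, and *Cry2* was the lowest in replicate 2 of each group. Replicate 2 minus 1 of *Cry2* turned from -0.21 to 0.07 on the log2 scale with the GC correction described below.

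Of the REV-ERB genes, *Nr1d1* (chr11:98767932-98775333, minus strand) was at 11.1, 12.1 and 16.4 FPKM in the controls and at 12.7, 11.2 and 15.7 with C3G. *Nr1d2* (chr14:18204054-18239127, minus strand) was at 7.31, 21.2 and 28.2 FPKM in the controls and at 12.7, 17.6 and 27.4 with C3G. Both were the highest in the replicate 3 libraries, and *Nr1d2* was also the lowest in the replicate 1 libraries. *Dbp* (chr7:45705088-45710203, plus strand) was at 11.2, 4.41 and 9.96 FPKM in the controls and at 6.203, 3.77 and 7.93 with C3G. Both replicate 2 libraries were the lowest of the 6 for *Dbp*, the reverse of *Arntl*. Exons of *Nr1d1* overlap those of *Thra*, and exons of *Dbp* those of *Sphk2*, each on the other strand. *Arntl* overlaps the antisense gene *Gm45355* and *Cry2* the transcript *D930015M05Rik*, which were not listed. How the counting used strand is not given in the sources used here, so the values of these 4 members are uncertain to that extent.

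The loops are wired through short promoter elements, and the promoter stretches of members with an exact match to one are shown here. RefSeq windows on GRCm38.p6 matched 9 of the 10 members, with 13 starts in all, each reaching from 250 bases before the start to 50 after it. *Per2* had none. The letters searched on both strands were CACGTG (E-box), TTATGTAA and TTACGTAA (D-box), TAGGTCA and TGGGTCA (ROR element) and TGACGTCA (cyclic AMP response element). Among 32851 windows, the 250 bases before the start held CACGTG in 6.02%, TTATGTAA in 0.819%, TTACGTAA in 0.113%, TAGGTCA in 2.23%, TGGGTCA in 3.24% and TGACGTCA in 1.55%. The stretches below run 5′ to 3′ on the strand of the gene from base -250 to base -11, and the capitals mark the matches.
*Per3*, chr4:151044676-151044915, minus strand, upstream of the gene: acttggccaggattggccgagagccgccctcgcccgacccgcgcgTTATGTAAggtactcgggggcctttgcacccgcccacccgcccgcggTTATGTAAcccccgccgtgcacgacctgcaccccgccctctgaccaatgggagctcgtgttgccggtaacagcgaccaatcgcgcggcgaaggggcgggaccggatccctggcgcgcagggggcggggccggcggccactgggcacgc
*Per1*, chr11:69098699-69098938, plus strand, inside the gene and before the first exon of its shorter transcripts: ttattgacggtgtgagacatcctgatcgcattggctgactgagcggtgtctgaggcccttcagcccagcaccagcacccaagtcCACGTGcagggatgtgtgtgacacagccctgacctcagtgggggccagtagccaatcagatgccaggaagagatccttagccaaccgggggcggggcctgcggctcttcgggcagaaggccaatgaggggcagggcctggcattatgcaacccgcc
*Cry1*, chr10:85185065-85185304, minus strand, upstream of the gene: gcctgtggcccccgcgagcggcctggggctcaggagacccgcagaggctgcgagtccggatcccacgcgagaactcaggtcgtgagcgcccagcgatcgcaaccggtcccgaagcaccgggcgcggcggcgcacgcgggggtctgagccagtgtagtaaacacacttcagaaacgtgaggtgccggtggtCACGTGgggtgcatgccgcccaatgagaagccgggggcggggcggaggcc
*Arntl*, chr7:113207531-113207557, plus strand, in the first exon: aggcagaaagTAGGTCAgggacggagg
None of the letters was found in the windows of *Clock*, *Cry2*, *Nr1d1*, *Nr1d2* and *Dbp*. The D-box of *Per3* occurred 2 times, with first bases at -205 and -158. The E-box began at -166 in *Per1* and at -60 in *Cry1*. The TAGGTCA of *Arntl* begins at base 31, counting the start as base 1; that stretch was added after the search, and 2.61% of the whole 300-base windows held these letters. *Per1* and *Cry1*, both with an E-box match, differed in the direction in which replicate 3 departed from replicate 2. A match in letters is a description of the window and no evidence that a factor was bound.

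Each member differed between replicate 3 and replicate 2 in the same direction in both groups, in 10 of 10 cases, against 63.4% of all genes. For all 10, both replicate 3 libraries also lay entirely above or entirely below both replicate 2 libraries, against 50.4% of all genes. *Dbp*, *Per3*, *Nr1d2*, *Nr1d1*, *Per2*, *Cry2* and *Per1* were higher in replicate 3, and *Arntl*, *Clock* and *Cry1* were higher in replicate 2. On the log2(FPKM + 1) scale, which understates the change of low genes, *Dbp* was 1.02 higher in replicate 3 of the controls and 0.90 higher with C3G, while *Arntl* was -0.73 and -0.71. As ratios of FPKM, replicate 3 was 1.85 times replicate 2 for *Per3* in the controls and 1.98 times with C3G. For *Dbp* the ratio was 2.26 in the controls, and for *Arntl* it was 0.431 in the controls and 0.463 with C3G. The members with small differences were *Per1*, at 0.23 and 0.04, *Cry2*, at 0.21 and 0.11, and *Cry1*, at -0.06 and -0.16 on the log2 scale. In bulk RNA, a transcript lost from some cells and less of it in every cell cannot be told apart.

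**Figure D2:**
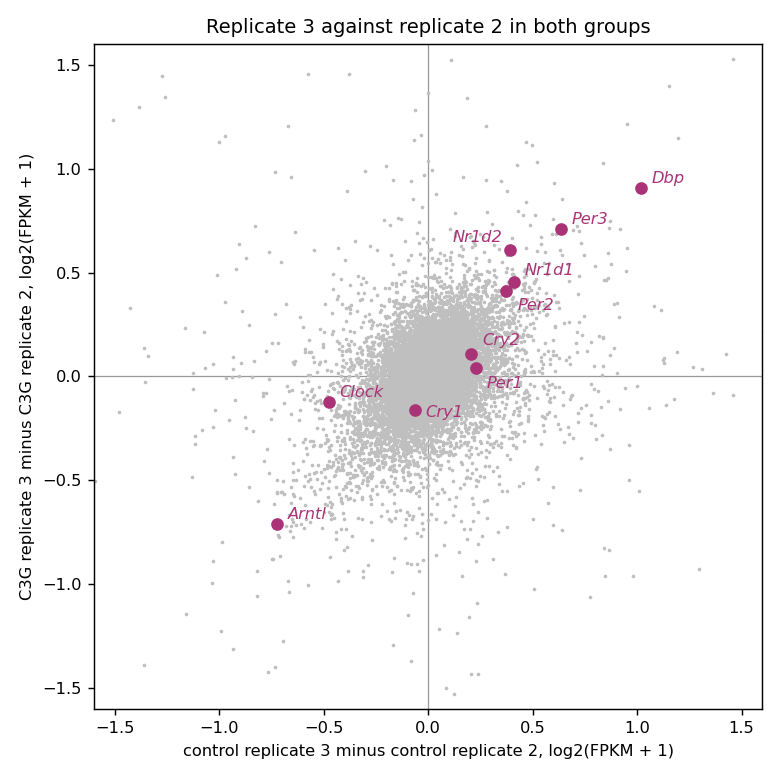
Difference between replicates 3 and 2 in log2(FPKM + 1), in the control libraries (horizontal axis) and in the C3G libraries (vertical axis); grey points are all genes (38 lie outside the axes) and purple points the 10 clock genes. *Dbp* lies at the upper right and *Arntl* at the lower left, and all 10 members fall in the quadrants where both groups have the same sign.

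limma, fitted to all 11234 genes with group and replicate number as terms, gave the tests of these differences. Over both groups, replicate 3 minus 2 was 0.96 ± 0.20 (SE, 95% interval 0.44 to 1.49) for *Dbp*, the largest of the 10. *Arntl* followed with -0.72 ± 0.15 (-1.11 to -0.33) and *Per3* with 0.67 ± 0.17 (0.23 to 1.12). For *Nr1d1* it was 0.43 ± 0.16 (0.02 to 0.84) and for *Per2* 0.39 ± 0.15 (0.02 to 0.77). Thus 5 of 10 members passed an unadjusted p under 0.05, against 2.12% of all genes. After adjustment over all genes none of them passed (adjusted p = 1.0 for each). The intervals of *Nr1d2* (0.50 ± 0.27, -0.21 to 1.21), *Clock* (-0.30 ± 0.23, -0.90 to 0.30), *Cry2* (0.16 ± 0.15), *Per1* (0.13 ± 0.15) and *Cry1* (-0.11 ± 0.15) included 0. With the replicate 1 libraries left out of both groups, 7 of 10 passed the unadjusted threshold, against 15.2% of all genes, *Clock* and *Nr1d2* being added. The smallest adjusted p among the members in that limma fit was 0.0751, for *Dbp*, followed by 0.116 for *Arntl* and 0.124 for *Per3*. Among the cell type markers, the same fit passed *Col1a1* (0.40, adjusted p = 0.213), *Col1a2* (0.32, adjusted p = 0.231) and *Cd68* (0.37, adjusted p = 0.220), each higher in replicate 3 of both groups. Their part in the differences of the members was not tested. A replicate 1 library left alone is fitted by its own term, so leaving out 1 of them repeats the fit without both. The count of 5 in the fit of 6 libraries became 7 without either replicate 1 library, against 15.2% of all genes in each case. It became 2 without control replicate 3 (1.06% of all genes) or C3G replicate 2 (1.3%). It was 1 without control replicate 2 (0.926%) and 0 without C3G replicate 3 (0.855%). The comparison of replicate 3 with replicate 2 in 6 libraries was named after the values were seen.

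Over all 3 numbers, the F test of the replicate number passed an unadjusted p under 0.05 for 5 of 10 members, against 25.5% of all genes. These were *Clock*, *Nr1d2*, *Dbp*, *Arntl* and *Per3*, all with an adjusted p of 0.184 in limma. *Per2* (adjusted p = 0.214) and *Nr1d1* (adjusted p = 0.222) came next. *Cry2*, *Cry1* and *Per1* had adjusted p from 0.574 to 0.643. At an adjusted p under 0.05 no member passed, against 0.0178% of all genes. The count of 5 became 7 without control replicate 1, against 40.5% of all genes, and 7 without C3G replicate 1, against 68.3%, a share near that of the members. It became 3 without control replicate 3 (16.1% of all genes), C3G replicate 2 (22.8%) or C3G replicate 3 (20.7%). Without control replicate 2 it was 2, against 16.1% of all genes.

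Across the 10 members, the departures of a control library from its group mean were set beside those of a C3G library. Pearson's r was 0.923 for the replicate 1 libraries, 0.900 for the replicate 2 libraries and 0.953 for the replicate 3 libraries, with a mean of 0.925. The value for replicate 1 leans on *Clock* (departures of -1.12 in control and -0.72 with C3G) and *Nr1d2* (-1.08 and -0.50), the largest there. The 6 pairs of unlike numbers gave -0.784 to -0.160, with a mean of -0.458. Over all genes the same-numbered pairs had a mean of 0.558 and the others ranged from -0.640 to 0.307, the positive values belonging to replicates 2 and 3. For the members, replicates 2 and 3 of unlike groups gave -0.160 and -0.391 in place of the 0.307 and 0.300 of all genes. These are descriptions across genes, which share their libraries and are not independent, and since the 3 departures of a group sum to 0, pairs of unlike numbers are pushed below 0.

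**Figure D3:**
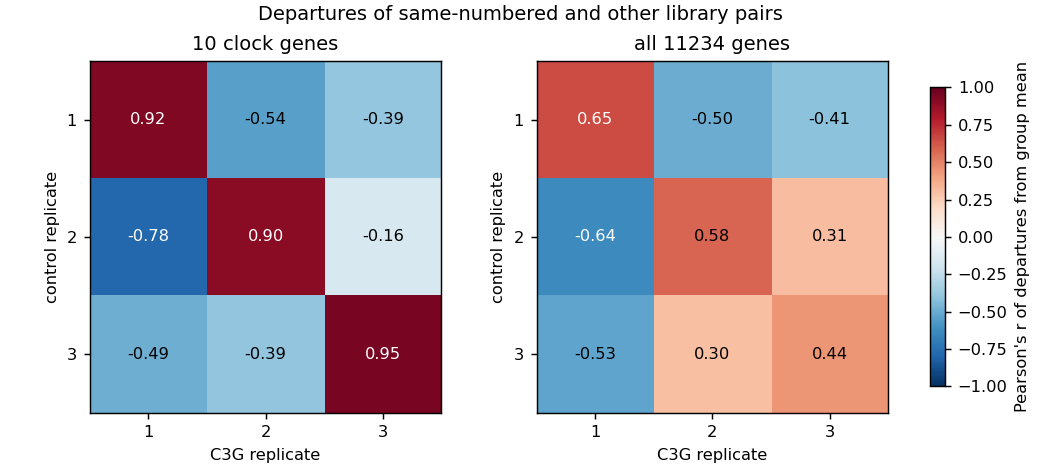
Pearson's r between the departures of a control library (rows, replicate 1 to 3) and of a C3G library (columns, replicate 1 to 3) from their group means, across the 10 clock genes (left) and across all 11234 genes (right); the colour runs from -1 (blue) to 1 (red). The same-numbered pairs on the diagonal are 0.90 to 0.95 for the clock genes and 0.44 to 0.65 for all genes.

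To place each library along the opposed arms of the loop, *Arntl* was subtracted from the mean of *Per2*, *Per3*, *Nr1d1*, *Nr1d2* and *Dbp* on the log2 scale. For the controls it came to 1.95 in replicate 1, 1.32 in replicate 2 and 2.61 in replicate 3, and for C3G to 1.63, 1.06 and 2.39. Replicate 2 was the lowest and replicate 3 the highest in both groups, and each C3G library lay below its control of the same number. The group means, 1.96 ± 0.65 (SD, n = 3) for control and 1.69 ± 0.67 for C3G, differed by -0.27, less than the SD of either group. Within the same-numbered pairs C3G minus control was -0.32, -0.27 and -0.23. With a smooth trend in transcript GC content subtracted from each library, these were -0.03, -0.27 and -0.21, and the group means differed by -0.17. Replicate 3 exceeded replicate 2 by 1.31 over both groups. The genes of this measure were chosen with earlier results of these data known. *Arntl* was lower in replicate 3 and the genes set against it were higher there, so a positive gap follows from the choice. *Per1*, with a replicate 3 minus 2 of 0.13 in limma, was left out. The gap is therefore a description and no separate test. Taken singly, *Per2*, *Per3* and *Nr1d1* minus *Arntl* also had replicate 2 the lowest and replicate 3 the highest in both groups. *Dbp* minus *Arntl* ran from 0.73 in replicate 2 to 2.56 in replicate 1 of the controls, where replicate 3 had 2.47, and from 0.39 to 2.01 with C3G. *Nr1d2* minus *Arntl* was lowest in replicate 1 of both groups, at 2.01 and 2.30, and highest in replicate 3, at 3.88 and 3.68.

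Base composition moved with the replicate 1 values. Over 11211 genes with a sequence, the Spearman correlation with transcript GC content was -0.741 for replicate 2 minus 1 and -0.758 for replicate 3 minus 1, but 0.112 for replicate 3 minus 2. *Clock* (40.9% GC) and *Nr1d2* (41.8%) lie among the lower 9.33% and 12.4% of genes by GC, and *Dbp* (61.6%) is above 98.0% of genes. *Clock* and *Nr1d2* were the 2 members that were lowest in both replicate 1 libraries, and *Dbp* was the highest in control replicate 1. When a smooth trend in GC was subtracted from each library, replicate 2 minus 1 of *Clock* went from 1.53 to 0.83, that of *Nr1d2* from 0.93 to 0.28 and that of *Dbp* from -0.88 to -0.31. It turned sign for *Per1* (-0.18 to 0.28), *Per2* (-0.002 to 0.21), *Cry2* (-0.21 to 0.07) and *Nr1d1* (-0.03 to 0.30). Replicate 3 minus 1 of *Dbp* rose from 0.08 to 0.61. Replicate 3 minus 2 hardly moved with the same correction, *Arntl* staying at -0.72, *Dbp* going from 0.96 to 0.92 and *Per3* from 0.67 to 0.66. The F test then passed an unadjusted p under 0.05 for 7 members, *Per2* (adjusted p = 0.228) and *Nr1d1* (adjusted p = 0.232) being added, against 18.2% of all genes. The same-numbered correlations across the members were then 0.689 to 0.931, and those across all genes 0.265 to 0.454. Replicates 2 and 3 of unlike groups then gave 0.0653 and 0.0553 over all genes, and -0.604 and -0.872 over the members. Replicates 1 and 2 differed in the same direction in both groups for 8 of 10 members, against 76.5% of all genes. Replicates 1 and 3 did so for 7 of 10, against 73.7%.

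C3G against control left the members without a call. None of the 10 passed an unadjusted p under 0.05 with a fold change of at least 1.2 in limma, against 0.65% of all genes (73 genes). None passed an adjusted p under 0.05, against 0.0% of all genes, and none had control and C3G libraries that did not overlap, against 4.02%. With the replicate number as a block the share over all genes was 1.5% (169 genes), and again no member was called.

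The largest differences as deposited were those of *Dbp*, at -0.41 ± 0.38 (SE, 95% interval -1.30 to 0.48), *Clock*, at 0.32 ± 0.54 (-0.96 to 1.61), and *Arntl*, at 0.25 ± 0.27 (-0.38 to 0.88), each with an adjusted p of 0.992 in limma. *Dbp* was lower with C3G in each of the 3 same-numbered pairs and *Arntl* and *Per1* were higher in each of the 3. *Dbp* passed the unadjusted threshold in 1 setting of 16, without control replicate 2, at -0.78. *Clock* turned to -0.24 without control replicate 1. After GC correction *Dbp* was at -0.22, *Per1* at 0.27, *Arntl* at 0.16 and *Clock* at 0.11, so that the order of the members changed. *Per1* (0.14), *Per3* (0.16) and *Nr1d2* (0.14, but -0.05 after GC correction) had positive differences, and those of *Per2*, *Cry1*, *Cry2* and *Nr1d1* were between -0.03 and 0.00. The intervals of *Per2* (-0.48 to 0.47), *Cry1* (-0.39 to 0.33), *Cry2* (-0.39 to 0.34) and *Nr1d1* (-0.49 to 0.50) come from the fit by group alone. With the replicate block the intervals were narrower, -0.31 to 0.30 for *Per2*, -0.33 to 0.34 for *Nr1d1*, -0.07 to 0.57 for *Arntl*, -0.19 to 0.46 for *Per1* and -0.84 to 0.02 for *Dbp*, and those of all 10 members included 0. Two-sided exact permutation tests of the single members gave p between 0.2 and 0.9, where 0.1 is the smallest that 3 against 3 allows.

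**Figure D4:**
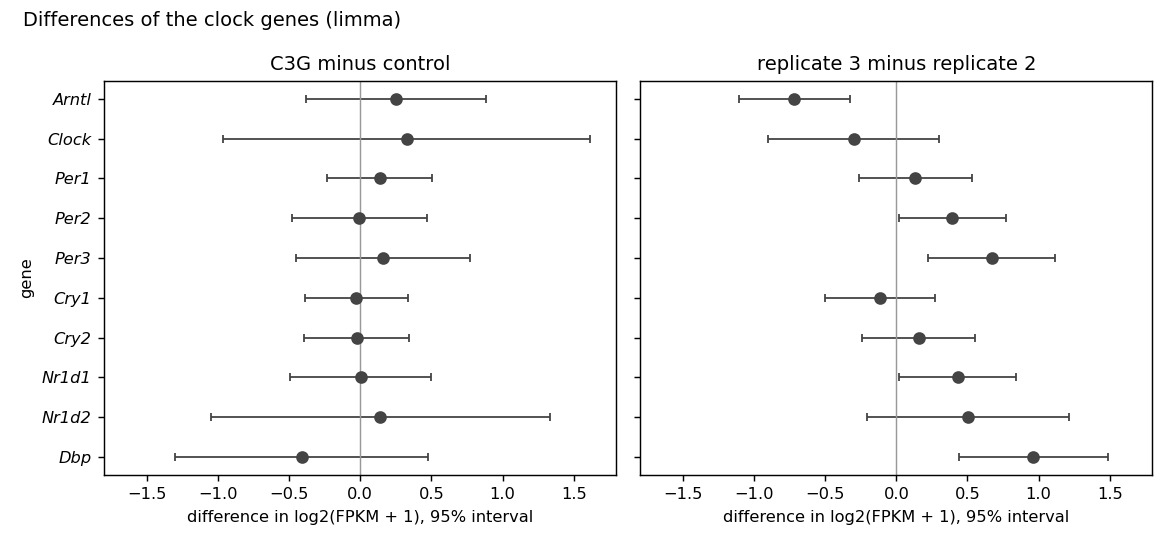
Difference in log2(FPKM + 1) with its 95% interval from limma for each clock gene, C3G minus control on the left and replicate 3 minus replicate 2 on the right. All 10 intervals on the left include 0, and on the right those of *Arntl*, *Per2*, *Per3*, *Nr1d1* and *Dbp* do not.

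The other genes of the loops were read from lists of E-box repressors, ROR element factors, D-box factors and partners of the positive arm. *Npas2*, *Rorb* and *Hlf* were not among the listed genes. *Tef*, a D-box activator like *Dbp*, was at 19.4, 16.1 and 23.5 FPKM in the controls and at 21.7, 16.03 and 22.6 with C3G. *Nfil3*, the repressor that competes for the D-box, was at 5.21, 6.44 and 3.46 FPKM in the controls and at 4.99, 7.63 and 4.64 with C3G. *Tef* was the lowest in replicate 2 and the highest in replicate 3 of both groups, and *Nfil3* was the reverse, as *Arntl* was. Replicate 3 minus 2 in limma was 0.49 for *Tef* (95% interval 0.11 to 0.88) and -0.68 for *Nfil3* (-1.12 to -0.23), both past an unadjusted p under 0.05 and with an adjusted p of 1.0.

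*Ciart*, a repressor of the dimer whose promoter window holds CACGTG 3 times before the start, was at 1.59, 3.02 and 4.07 FPKM in the controls and at 2.68, 2.74 and 4.72 with C3G. Replicate 3 minus 2 was 0.47 for it (95% interval -0.04 to 0.99), 0.41 for *Bhlhe40* (-0.03 to 0.85) and 0.39 for *Bhlhe41* (-0.09 to 0.86), which encode E-box repressors of the DEC family. Without the replicate 1 libraries all 3 passed the unadjusted threshold in limma, against 15.2% of all genes (adjusted p = 0.193, adjusted p = 0.134 and adjusted p = 0.190). *Bhlhe40*, at a mean of 17.6 FPKM, was the most abundant of the 8 E-box repressors, and all 8, the 5 *Per* and *Cry* members included, had the same direction of replicate 3 minus 2 in both groups. *Rora*, an activator at the ROR element, was at 0.730, 2.65 and 2.41 FPKM in the controls and at 1.23, 2.97 and 2.55 with C3G. As for *Clock*, both replicate 1 libraries were the lowest and replicate 2 was the highest in each group (F test, adjusted p = 0.184, and 0.545 as adjusted p without the replicate 1 libraries). The transcript GC content of *Rora*, 40.9%, was also like that of *Clock*. *Arntl2*, a partner that can stand in for *Arntl*, was between 1.25 and 1.67 FPKM and had replicate 3 minus 2 of -0.06 in the controls and 0.25 with C3G. The promoter windows of *Tef*, for both its starts, and of *Bhlhe41* hold CACGTG once each, and that of *Nfil3* holds TAGGTCA at -12.

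**Figure D5:**
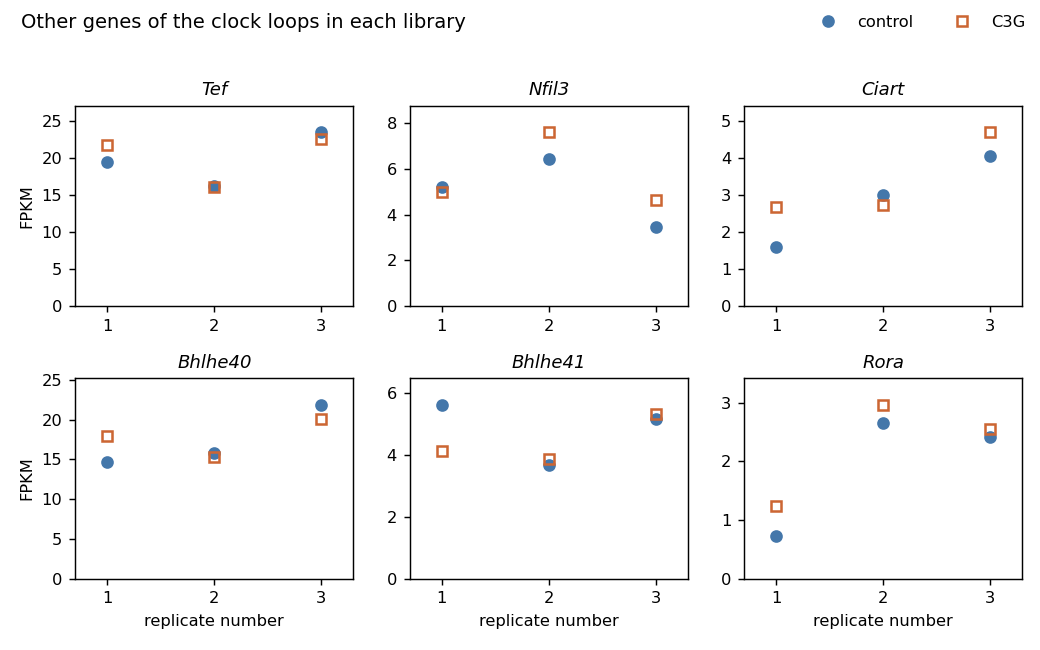
FPKM of 6 other genes of the clock loops (vertical axes from 0, each with its own scale) against the replicate number (horizontal axes); filled blue circles are the control libraries and open orange squares the C3G libraries. *Nfil3* is the highest in replicate 2 of both groups, whereas *Tef* is the lowest there.

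Proteins that modify clock components formed a further list. Of 20 kinases, ligases and cofactors, 19 were listed, from *Btrc* at a mean of 2.43 FPKM to *Csnk2b* at 47.1 and *Sfpq* at 99.9. None passed for replicate 3 minus 2 in limma at an unadjusted p under 0.05, against 2.12% of all genes. In 12 of the 19 the direction was the same in both groups, where 63.4% of all genes had this. Their median size of that difference was 0.09, against 0.41 for the clock members and 0.10 for all genes. The F test passed the unadjusted threshold for 2 of 19, against 25.5% of all genes. These were *Usp7* and *Nampt* (adjusted p = 0.184 for each in limma), and neither passed without the replicate 1 libraries (adjusted p = 0.942 and adjusted p = 0.430). *Usp7* was at 7.91, 18.8 and 17.6 FPKM in the controls and at 14.3, 19.1 and 20.8 with C3G, so that its low libraries were those of replicate 1. *Nampt*, at 2.16, 9.18 and 8.35 FPKM in the controls and at 5.56, 9.06 and 8.02 with C3G, was low in the same libraries. Transcript GC content was 45.1% for *Usp7* and 40.3% for *Nampt*, below the median of all genes, 49.6%.

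Of 9 outputs that are rhythmic in many tissues, all were listed, from *Pfkfb3* at a mean of 3.33 FPKM to *Rbm3* at 46.4 and *Cdkn1a* at 92.2. None passed for replicate 3 minus 2 in the fit of 6 libraries, against 2.12% of all genes, and none passed the F test, against 25.5%. Without the replicate 1 libraries 3 passed an unadjusted p under 0.05 for replicate 3 minus 2, against 15.2% of all genes. These were *Wee1*, a mitotic kinase (0.19, adjusted p = 0.264), and *Cirbp* (0.20, adjusted p = 0.290) and *Rbm3* (-0.20, adjusted p = 0.253), which encode cold-inducible RNA-binding proteins.

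Of 11 early genes that serum induces, 2 passed the unadjusted threshold for replicate 3 minus 2 in the fit of 6 libraries, against 2.12% of all genes, both lower in replicate 3. Without the replicate 1 libraries 5 passed, against 15.2%, all lower in replicate 3, with *Fos*, *Junb* and *Ccn2* added. The difference of *Fos* rests on C3G replicate 2, at 4.84 FPKM against 0.377 to 0.900 in the other libraries. *Dusp1*, a phosphatase of MAP kinases, was at 3.26, 7.15 and 3.91 FPKM in the controls and at 4.77, 10.7 and 3.46 with C3G (-1.06, 95% interval -1.64 to -0.49). *Ccn1*, a matricellular protein, was at 61.1, 105.2 and 77.6 FPKM in the controls and at 82.6, 132.2 and 66.2 with C3G (-0.71, 95% interval -1.27 to -0.15). Both were the highest in replicate 2 of each group, where *Arntl* and *Nfil3* also were. The median of the list was -0.60 over both groups, -0.05 in the controls and -0.90 with C3G, and 6 of its 11 genes had the same direction in both groups, against 63.4% of all genes. The F test passed for 4, against 25.5%, with *Srf* and *Ccn2* beside *Dusp1* and *Ccn1*. *Srf*, a transcription factor that answers to serum, was at 39.96, 19.7 and 19.99 FPKM in the controls and at 29.9, 21.3 and 20.1 with C3G, so that its high libraries were those of replicate 1. *Fosb* had the lowest mean of the list, 0.922 FPKM. None of the 10 cell cycle genes passed for replicate 3 minus 2 in the fit of 6 libraries, against 2.12% of all genes. Without the replicate 1 libraries 4 passed, against 15.2% of all genes. These were *Mki67*, *Top2a* and *Ccna2*, higher in replicate 3, and *Ccnd1*, lower. The F test passed for 4, *Mki67*, *Top2a*, *Ccnb1* and *Ccne2*, against 25.5% of all genes. All 4 were the lowest in both replicate 1 libraries, *Top2a* being at 51.5 and 64.5 FPKM there and between 105.3 and 126.2 in the others. Their transcript GC content ran from 36.3% (*Ccne2*) to 46.6% (*Mki67*), below the median of all genes, 49.6%, while that of *Srf* was 64.4%. The genes of these lists were not read after GC correction. *Ccnd1* had the highest mean of the list, 125.5 FPKM, and *Ccne2* the lowest, 10.7. No gene of these lists was called between C3G and control. *Timeless*, of the list of clock modifiers, was the only gene of the lists whose groups did not overlap, at 14.6, 10.8 and 11.2 FPKM in the controls and 8.34, 10.04 and 10.3 with C3G, where 4.02% of all genes did not. How the serum-induced genes and the clock genes bear on each other was not tested.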

How the data were processed

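RNA-seq of 3 control and 3 C3G libraries of MC3T3-E1 cells was used. Per the study's methods, stranded libraries were read for 150 cycles and the authors calculated FPKM with Ballgown. The deposited FPKM values are the starting point here. The submitters' processing notes also name cutadapt, HISAT2 2.1.0, StringTie, STAR 2.5.2b and the human build hg19, without roles. The identifiers are mouse, and 9828 of 11234 match GENCODE M21 (GRCm38) with their version, which gave symbols, positions and GC. Each gene has a mean FPKM of at least 0.5 in a group. No counts are given, so depth and counting error are unknown. The label writes the dose as um/l, and the unit of the study's methods is used.

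Values were transformed to log2(FPKM + 1), with no filter, and fitted with limma 3.58.1 in R 4.3.3 (eBayes with trend), by group alone for C3G and by group and replicate number for the numbers. Differences of the groups were called at p under 0.05 with a fold change of at least 1.2. Adjustment was by Benjamini-Hochberg over 11234 genes. The fits were tested on simulated data. Same-numbered libraries deviated together over all genes (r = 0.653, 0.580 and 0.440), so the numbers, taken from the labels, were used to pair the libraries. After GC correction these r were 0.420, 0.454 and 0.265. The labels give the numbers only and do not say that same-numbered libraries belong together. The C3G fit has no block, and the fit with the replicate block is an alternative. Nothing in the labels says that the libraries are separate cultures, so p-values measure the spread between these samples, which may be technical. The GC correction subtracted a natural spline with 5 degrees of freedom. All 10 members were named; other genes were named if they passed p under 0.05, or had the 2 highest or the lowest mean level of a list. Members and lists were chosen with earlier results of these data known.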

Additional observations from a re-analysis of the deposited data

How the results depend on the processing

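The direction of replicate 3 minus 2 did not turn for any member in 13 alternatives (130 values): 106 kept their side of the threshold, 17 lost it and 7 gained it. Leaving out replicate 1 libraries, fitting eBayes without trend or filtering by mean FPKM cannot change the estimate, so the direction could not turn there. C3G minus control crossed the threshold once in 160 values, and turned sign in 25. With 73 genes called between the groups, the count was 135 after GC correction, 48 with an ordinary linear model, 169 with the replicate block, 246 with the replicate block and GC correction, 191 with replicates 2 and 3 only, and 40 to 144 with a library left out; the block changed no call of a member. The replicate number called 2860 genes, 1702 with replicates 2 and 3 only and 1809 to 7676 with a library left out; its 2 adjusted calls became 29 to 7102, where 1 number is left with a single library assumed to vary like the others. Leaving out a library gave 0 to 1 members called between the groups, 2 to 7 for the replicate number and 0 to 7 for replicate 3 minus 2. The mean same-numbered correlation of 0.925 was 0.842 after GC correction and 0.698 to 0.885 with a library left out. The mean of the 5 genes minus *Arntl* differed between replicates 3 and 2 by 1.31, and by 1.78 with a pseudocount of 0.1; its group difference of -0.27, negative in each same-numbered pair, was 0.05 without control replicate 3 and 0.04 without C3G replicate 2, settings that leave a library without its pair, and ranged down to -0.62 without C3G replicate 3. Sign changes between the groups were as follows, the p being at least 0.223 in each. After GC correction, both with the replicate block and in its absence, *Per2* was 0.011, *Cry2* 0.0147 and *Nr1d2* -0.0502. With replicates 2 and 3 only, *Cry1* was 0.0183, *Cry2* 0.0388, *Nr1d1* -0.0873 and *Nr1d2* -0.15. *Nr1d1* was -0.064 with median centring and -0.0409 with quantile normalization, alternatives that moved the median of all genes from 0.06 to -0.01 and 0.00. With a library left out, *Clock* ranged from -0.24 to 0.73, *Per2* from -0.14 to 0.12, *Cry1* from -0.0787 to 0.042, *Cry2* from -0.12 to 0.0489, *Nr1d1* from -0.12 to 0.16 and *Nr1d2* from -0.40 to 0.51. The causes were not tested. With no counts given, the depth that limits *Arntl*, *Per3* and *Cry2*, the members of low FPKM, is unknown.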

Other observations

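The genes whose levels ran most like those of a member were taken over the 6 libraries, among 6866 or 6867 genes with a mean of at least 5 FPKM, as a description with no test. Pearson's r of log2(FPKM + 1) with *Arntl* was highest for *Foxk2* (0.991), *Ccn3* (0.983) and *Eif4ebp1* (0.977), and lowest for *Ncapd2* (-0.984), *Dbp* (-0.982) and *Aurkb* (-0.979). *Dbp* was thus among the 3 genes most opposed to *Arntl*. For *Dbp* the highest were *Ncapd2* (0.990), *Aurkb* (0.987) and *Isg15* (0.974), and the lowest *Ccn3* (-0.990), *Adamts1* (-0.982) and *Foxk2* (-0.979). For *Nr1d1* the highest were *Rnf169* (0.979), *Bhlhe40* (0.978) and *Postn* (0.969), and the lowest *Nxn* (-0.988), *Epha2* (-0.982) and *Ppm1f* (-0.977). *Bhlhe40* is itself a gene of the clock loops. For *Per2* the highest were *Gm45717* (0.996), *Nek9* (0.993) and *Grb2* (0.985), and among the lowest were *Gramd4* (-0.976) and *Mrpl46* (-0.960). Of the 6 libraries 2 stand apart by GC content, and each of the 4 members searched had genes with an r this far from 0.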
